A study of Mus musculus with 17 samples.

Results

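Interferon-stimulated genes are switched on when a cell senses type I, II or III interferon. Type I and III interferons act through receptors that activate a factor holding STAT2 and IRF9, which binds interferon-stimulated response elements in promoters. The products block viral replication (the IFIT proteins, OAS and OASL proteins, viperin encoded by Rsad2), sense foreign RNA (Ddx58, Ifih1, Dhx58), attack pathogen-containing vacuoles (the guanylate-binding proteins and Iigp1) or feed back on the pathway itself (Irf7, Usp18), and a raised interferon signature is a known feature of scleroderma skin.

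The 35 genes described here were taken from a fixed list of such genes, by a rule that uses no measured value. The list itself was chosen with earlier results of these data known. Of the 35 genes, 34 were found by Ensembl identifier among the 30406 identifiers shared by all libraries, and Mx1 was not analysed here. By role, 22 of the 34 are antiviral effectors, 4 belong to signalling and feedback (Irf7, Irf9, Stat2, Usp18), 3 are RNA sensors and 5 are interferon-inducible GTPases (Iigp1, Gbp2, Gbp3, Gbp5, Gbp7). On GRCm38 they lie on 14 chromosomes. Ifit1, Ifit2 and Ifit3 neighbour each other on chromosome 19, the 4 guanylate-binding protein genes on chromosome 3, and the Oas and Oasl genes lie on chromosome 5.

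Single-cell 3′ libraries were made from sorted GFP+ cells of 8-week-old mice carrying PDGFRb-Cre and the Z/EG reporter, with 17 libraries in all. In skin, 3 libraries came from wild-type (WT) mice given PBS and 3 from WT mice given bleomycin (20 mg/kg subcutaneously, 3 times a week for 2 weeks by the labels, whereas the study's methods give daily injections), with 1 PBS and 1 bleomycin library from SARATg mice. In kidney, 3 libraries came from WT mice given vehicle and 3 from WT mice given aristolochic acid (AA, 5 mg/kg intraperitoneally, 3 times a week for 3 weeks), with 2 vehicle and 1 AA library from SARATg mice. SARATg mice overexpress SARA, encoded by Zfyve9 and first described as an adaptor of TGF-β signalling that was later found to proceed without it, where PDGFRb-Cre is or has been active, which includes leukocytes, so the sorted cells are a mixture. The study calls its single-cell plots representative of independent experiments, but neither the labels nor the methods tie the libraries of a group to separate mice, and p-values measure only the spread between these libraries.

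To show what the genes share upstream, promoter windows of 300 bases (250 before to 50 after the RefSeq start, GRCm38.p6) were searched on both strands for the core of the interferon-stimulated response element, written GAAANNGAAA. A window was available for 27 of the 34 genes. The element stood in at least 1 window of 16 of these 27 genes (59.3%), against 3.99% of the 27025 genes with a window. The looser STAT element TTCNNNGAA, which can overlap the first, stood in 29.6% of the 27 genes against 9.55%. A match of letters is a description and not a measured binding site. For 6 genes followed below, the 160 bases that end just before the RefSeq or the GENCODE start, whichever lies further upstream, are given 5′ to 3′ on the gene's strand, with bases of the element (either strand) in capitals. The tandem copies in Isg15, Bst2, Ifit1, Ifit3 and Gbp3 can be compared with Irf7, where this stretch holds none.
Isg15 (chr4:156200819-156200978, minus strand): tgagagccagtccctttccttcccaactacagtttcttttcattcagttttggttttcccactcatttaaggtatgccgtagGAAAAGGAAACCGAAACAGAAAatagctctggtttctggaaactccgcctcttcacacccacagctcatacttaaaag
Bst2 (chr8:71537473-71537632, minus strand): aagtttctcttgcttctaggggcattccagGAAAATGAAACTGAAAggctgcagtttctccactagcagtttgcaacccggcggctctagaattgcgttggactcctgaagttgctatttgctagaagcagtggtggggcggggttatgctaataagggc
Ifit1 (chr19:34640711-34640870, plus strand): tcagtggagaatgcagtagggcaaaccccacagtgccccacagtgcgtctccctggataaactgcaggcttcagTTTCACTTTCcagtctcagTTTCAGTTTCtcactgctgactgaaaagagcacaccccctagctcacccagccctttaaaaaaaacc
Ifit3 (chr19:34583369-34583528, plus strand): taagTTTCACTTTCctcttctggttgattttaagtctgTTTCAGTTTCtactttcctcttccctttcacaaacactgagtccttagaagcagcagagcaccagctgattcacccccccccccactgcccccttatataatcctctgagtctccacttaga
Gbp3 (chr3:142559866-142560025, plus strand): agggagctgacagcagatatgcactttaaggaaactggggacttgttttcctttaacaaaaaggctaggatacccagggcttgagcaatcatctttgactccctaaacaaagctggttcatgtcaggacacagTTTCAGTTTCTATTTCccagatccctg
Irf7 (chr7:141266482-141266641, minus strand): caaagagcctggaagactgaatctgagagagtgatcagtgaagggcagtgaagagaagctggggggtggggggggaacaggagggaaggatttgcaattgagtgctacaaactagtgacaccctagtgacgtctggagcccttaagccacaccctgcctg
All levels below are counts per 1000000 UMIs (CPM) after UMIs were summed within a library over all cells kept or over 1 cell class. Of 30076 skin cells and 71324 kidney cells kept, 25762 and 64976 were placed in 1 class from marker genes, none of which is an interferon-stimulated gene, and 11.8% of skin and 4.50% of kidney cells lay near the gate's limit. Total UMIs per library ranged from 3355217 (skin WT PBS 2) to 137093834 (kidney WT vehicle 1), and the interval of any level covers counting error only. The transgene holds human ZFYVE9 cDNA, and the level of mouse Zfyve9 or of human ZFYVE9 went against the label in several libraries. A separate human ZFYVE9 entry that only 4 libraries list had 845 CPM in the library labelled skin WT PBS 1. The others that list it (WT PBS 2 and WT bleomycin 1 and 2) had 89.3 to 190 CPM. Mouse Zfyve9 had 26.0, 11.9 and 621 CPM in the libraries labelled skin WT PBS 1 to 3, and 7.75, 8.66 and 9.39 CPM in WT bleomycin 1 to 3. It had 314 and 224 CPM in SARATg PBS and bleomycin. Mouse Zfyve9 is not a like measure between libraries with and without the human entry. In kidney it had 167 CPM in the library labelled WT AA 1 against 11.1 to 31.8 in the other WT libraries, and 20.7 CPM in SARATg AA against 91.7 and 93.4 in SARATg vehicle. Directions drawn from these libraries rest on their labels. Cell barcodes found in another library of the tissue made up 59.8% of skin WT PBS 2, 25.2% of WT bleomycin 2, 19.6% of WT bleomycin 1 and 7.56% of WT PBS 1, and at most 0.77% of the other skin and 2.06% of the kidney libraries. The library labelled kidney WT vehicle 3 stood apart, with 43.6% of its cells in the T, NK and innate lymphoid class against 3.35% and 4.15% in WT vehicle 1 and 2 and 42.4% to 58.1% in WT AA. Cells gated as stromal, the class with the fibroblast genes, were almost lacking in kidney (0 to 37 per library), and Pdgfrb, the gene behind the sort, had 0.187 to 1.5 CPM there.

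The summed level of the 34 genes depended first on cell class. In skin of WT mice given PBS it was highest in endothelial cells, with 7573, 7704 and 8498 CPM, and lay between 1586 and 2735 CPM in stromal cells, mononuclear phagocytes and neutrophils. Stromal cells overlapped both of the others, and neutrophils (2426 to 2735 CPM) lay above phagocytes (1689 to 2088 CPM) in every library. T, NK and innate lymphoid cells had 624 and 488 CPM and keratinocytes 312 to 772 CPM. Kidney showed the same leading class. Endothelial cells of WT vehicle kidneys had 7711, 6988 and 9901 CPM, phagocytes 2834 to 3273 CPM, neutrophils 2129 to 3667 CPM, lymphoid cells 1105 to 1229 CPM, B cells 472 to 759 CPM and proximal tubule cells 76.2 to 473.5 CPM. Ifitm3, a membrane protein that stops enveloped viruses from entering, made up a large part of the endothelial sum, with 3326, 3728 and 5253 CPM in skin WT PBS and 2406, 2435 and 4573 CPM in kidney WT vehicle. These levels are a description of classes and were not tested against each other.

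**Figure D1:**
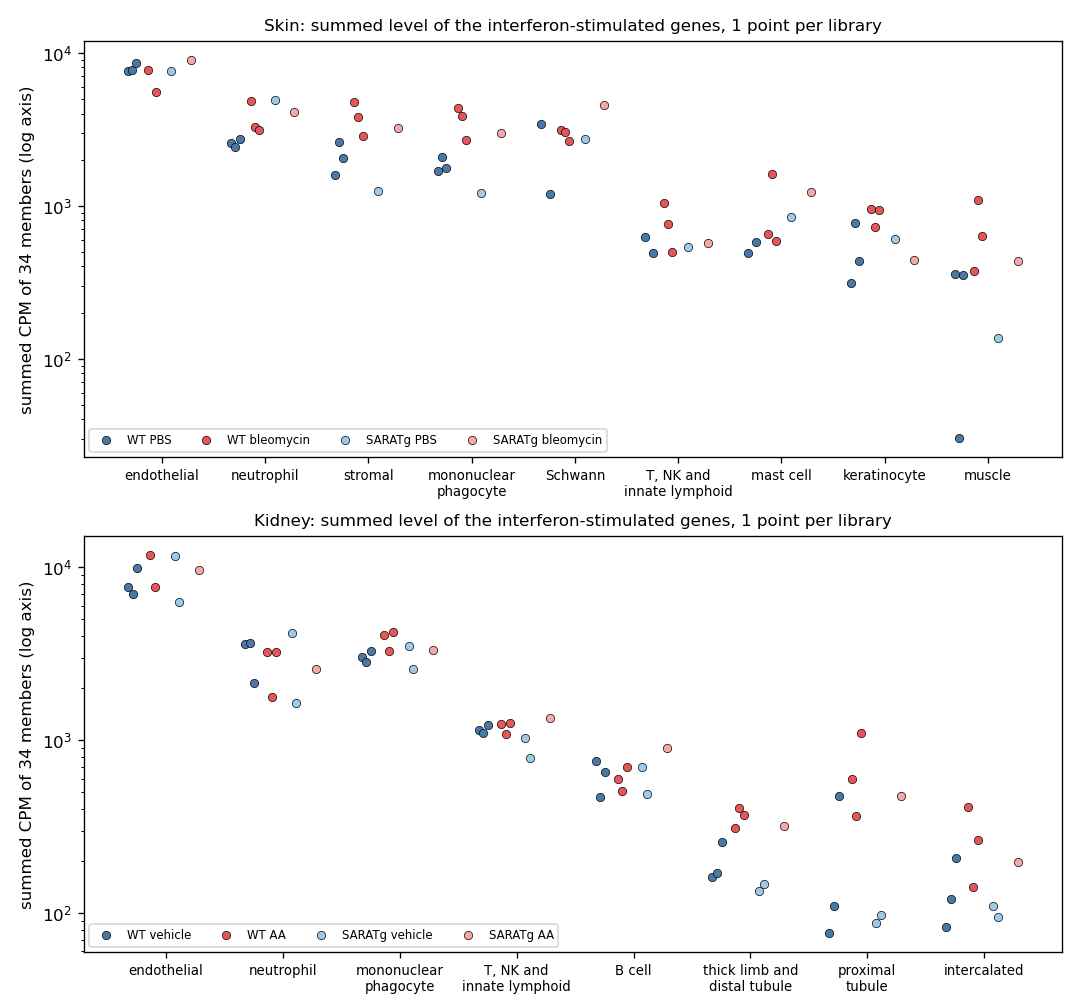
Summed level of the 34 interferon-stimulated genes (CPM, log axis) in each library, by cell class, for skin (top) and kidney (bottom), coloured by group; each point is 1 library. Skin phagocytes and stromal cells lie higher in the 3 WT bleomycin libraries than in the 3 WT PBS libraries (phagocytes 2695 to 4320 against 1689 to 2088 CPM), and kidney proximal tubule cells of WT vehicle 3 (473.5 CPM) lie among the WT AA libraries.

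In skin, the question was whether interferon-stimulated genes differ between bleomycin and PBS and in which cells. In stromal cells of WT mice, 7 of the 32 genes tested rose with bleomycin (Ifi44, Isg15, Rtp4, Bst2, Irf7, Ifit1 and Gbp3) and none fell. Across all 10817 genes tested in that class 3.12% rose and 5.25% were called in either direction. The median log2 fold over the 32 genes was 0.91, against -0.01 over all genes, and 30 of the 32 were higher. The 3 bleomycin libraries lay above the 3 PBS libraries without overlap for 20 of the 32 genes, which held for 15.6% of all genes tested. Oasl1 and Oas3 had too few UMIs for the test.

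Isg15, a ubiquitin-like protein that is conjugated to other proteins during infection, had 40.5, 45.4 and 47.6 CPM in stromal cells of WT PBS 1 to 3 and 282, 164 and 131 CPM in WT bleomycin 1 to 3. The groups did not overlap, and the log2 fold was 2.16 (SE 0.332, adjusted p = 0.0248). Ifi44, an interferon-induced cytoplasmic protein, went from 0.925, 1.38 and 1.77 CPM to 18.6, 7.4 and 8.33 CPM, a log2 fold of 3.17 (SE 0.576, adjusted p = 0.0291). It had the highest fold of the 7 and the lowest level. Rtp4, an interferon-induced receptor-transporting protein, had 11.6, 11 and 11.2 CPM with PBS and 65.0, 53.0 and 28.4 CPM with bleomycin (log2 fold 2.16, SE 0.344, adjusted p = 0.0259).

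Bst2 (tetherin), which holds budding virus at the cell surface, had 121, 205 and 144 CPM in stromal cells with PBS and 575, 446 and 291 CPM with bleomycin, a log2 fold of 1.53 (SE 0.330, adjusted p = 0.0419). Ifit1, which binds viral RNA caps, had 20.0, 19.3 and 19.5 CPM and then 74.9, 53.7 and 32.9 CPM (log2 fold 1.5, SE 0.323, adjusted p = 0.0418). Its PBS libraries lay close together and all bleomycin libraries were above them. Irf7, the transcription factor that amplifies type I interferon production, had 13.6, 28.9 and 18.9 CPM and then 66.1, 51.8 and 41.3 CPM, a log2 fold of 1.52 (SE 0.337, adjusted p = 0.0439). Gbp3, a guanylate-binding GTPase, had 8.55, 17.9 and 12.2 CPM and then 40.6, 32.1 and 25.0 CPM (log2 fold 1.5, SE 0.351, adjusted p = 0.0497). For all 7 genes that rose, WT bleomycin 1 had the highest value of the 6 libraries.

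Other stromal values did not pass the test. Ifitm3 had 931, 1606 and 1362 CPM with PBS and 2532, 2227 and 1682 CPM with bleomycin (log2 fold 0.75, adjusted p = 0.137), and Gbp2 had 47.3, 60.6 and 35.6 CPM and then 96.1, 69.7 and 81.0 CPM (log2 fold 0.87, adjusted p = 0.0733), in both cases without overlap. Usp18, which trims ISG15 from proteins and dampens the interferon receptor, had 6.70, 8.26 and 15.0 CPM and then 31.4, 17.9 and 20.1 CPM (log2 fold 1.21, adjusted p = 0.117). Ifit3, a partner of Ifit1, overlapped between groups, with 9.36, 44.1 and 11.2 CPM against 89.9, 41.9 and 18.6 CPM (log2 fold 1.59, adjusted p = 0.221). Stat2, part of the factor that binds the response element, overlapped too, with 26.5, 19.3 and 19.7 CPM against 24.8, 38.9 and 29.2 CPM (log2 fold 0.51, adjusted p = 0.215). Isg20, an exonuclease, and Cmpk2, a mitochondrial nucleotide kinase, were the only 2 of the 32 genes with a fold below 0, at log2 -0.54 and -0.25. By role, 5 of 20 antiviral effectors tested rose (median log2 fold 1.20), 1 of 4 signalling genes (0.86), 0 of 3 RNA sensors (0.82) and 1 of 5 GTPases (0.67).

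The stromal count rests on single libraries. It was 2, 0 and 3 genes without WT PBS 1, 2 or 3 (1.83%, 0.382% and 1.29% of all genes rose), and 0, 1 and 3 genes without WT bleomycin 1, 2 or 3 (0.0978%, 0.808% and 0.468%). WT PBS 1, by its human ZFYVE9 entry, and WT PBS 3, by mouse Zfyve9, go against the label. A fit without both leaves WT PBS 2 as the only control library, assumed to vary like the bleomycin libraries, so only its median fold is given. The count was 0 when cells with a shared barcode were left out (0.143%) and 0 when the cells with the most UMIs were left out (0.144%). The median log2 fold over the interferon-stimulated genes was 0.69, 0.75 and 0.66 under these 3 alternatives. Phagocyte markers (10 in the panel) summed to 64.5 to 86.1 CPM in stromal cells with PBS and 50.8 to 85.7 CPM with bleomycin, lymphoid markers to 4.13 to 10.8 and 4.54 to 9.25 CPM, and neutrophil markers to 19.5 to 31.7 and 35.2 to 96.4 CPM, the one panel of the 3 that was higher with bleomycin in all libraries. A separate list of dendritic cell genes summed to 138, 51.0 and 63.4 CPM with PBS and 166, 159 and 173 CPM with bleomycin, also without overlap. Lists of monocyte and resident macrophage genes overlapped between groups. The part of neutrophil or dendritic cell RNA in the result was not tested. The 12 immediate early and heat shock genes, a group that can respond to tissue handling, summed to 9283, 12970 and 8481 CPM with PBS and 5058, 7521 and 6080 CPM with bleomycin in stromal cells, without overlap, and none passed the test (median log2 fold -0.64). Their part was not tested either. Pdgfra, a defining stromal marker, had 296 to 362 CPM with PBS and 113 to 198 CPM with bleomycin within the same gate, and a change in the kinds of stromal cell was not tested.

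**Figure D2:**
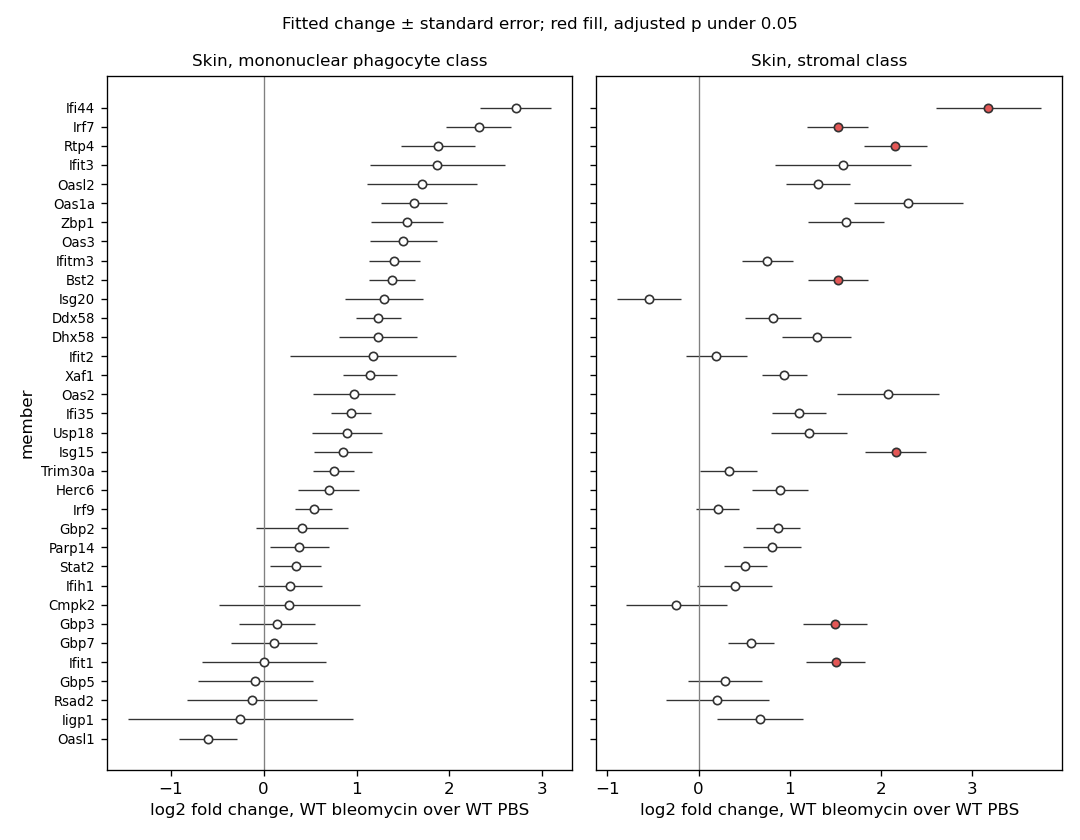
Log2 fold of each interferon-stimulated gene (WT bleomycin over WT PBS, edgeR, bars show the standard error) in skin mononuclear phagocytes (left) and stromal cells (right); red points passed an adjusted p of 0.05. The red points are the 7 stromal genes from Ifi44 (3.17) to Gbp3 (1.5), and no phagocyte point is red although Ifi44 (2.71) and Irf7 (2.32) lie far to the right.

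In skin mononuclear phagocytes of WT mice, 0 of 34 genes passed the edgeR test (3 of 12244 genes, 0.0245%, were called), while 19 of the 34 stood below 0.05 before adjustment (11.1% of genes did) and 12 rose by DESeq2 (1.28% of genes). The median log2 fold was 0.92 against 0.01 over all genes, 30 of 34 were higher, and 13 did not overlap between groups, all of them higher with bleomycin, against 7.83% of genes. Irf7 had 35.9, 34.6 and 69.0 CPM with PBS and 266, 249 and 177 CPM with bleomycin, a log2 fold of 2.32 (SE 0.351, adjusted p = 0.108). Ifi44 went from 2.42, 2.93 and 3.24 CPM to 24.6, 19.7 and 10.5 CPM (log2 fold 2.71, SE 0.385, adjusted p = 0.108). In both, every bleomycin library lay far above every PBS library. With the replicate number as a block, 5 genes rose (0.817% of all genes rose): Oasl2, Irf7, Ifi44, Ddx58 and Xaf1. Without WT PBS 3 the count was 4 (0.878% of genes) and without WT bleomycin 3 it was 2 (0.112%).

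Ifitm3 had 481, 448 and 759 CPM in phagocytes with PBS and 1763, 1303 and 1314 CPM with bleomycin (log2 fold 1.41, adjusted p = 0.165). Bst2 had 167, 150 and 181 CPM and then 551, 408 and 297 CPM (log2 fold 1.38, adjusted p = 0.148), and Isg15 had 78.5, 151 and 147 CPM and then 236, 253 and 175 CPM (log2 fold 0.85, adjusted p = 0.382). These 3 did not overlap between groups, whereas the next 4 did. Ifit3 had 6.56, 16.4 and 5.45 CPM and then 30.9, 50.1 and 7.19 CPM (log2 fold 1.87), Usp18 had 12.5, 18.8 and 10.7 CPM and then 25.6, 33.5 and 13.3 CPM (log2 fold 0.90), Stat2 had 52.8, 59.3 and 36.7 CPM and then 67.2, 72.7 and 39.1 CPM (log2 fold 0.34), and Gbp2 had 53.5, 91.0 and 25.8 CPM and then 94.6, 81.8 and 34.2 CPM (log2 fold 0.41). The fold of Gbp2 was -0.32 without WT PBS 1 and 3, when WT PBS 2 is the only control library. Within phagocytes the 5 GTPases had a median log2 fold of 0.11, against 1.16 for the 22 antiviral effectors, 1.23 for the RNA sensors and 0.72 for the signalling genes. Oasl1 (143, 181 and 92.6 CPM with PBS and 82.3, 119 and 60.6 CPM with bleomycin) was 1 of 4 genes with a fold below 0.

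Iigp1, an immunity-related GTPase, split by library instead of by treatment in phagocytes. It had 68.3, 109, 70.8 and 57.1 CPM in WT PBS 1 and 2 and WT bleomycin 1 and 2, and 1.37 to 10.5 CPM in the other 4 skin libraries, SARATg included. The first 4 are the libraries counted against a longer gene list with another Cell Ranger version, so among WT libraries the gene list and the replicate number cannot be told apart. Both SARATg libraries are labelled replicate 1, were counted against the shorter list and had low values. Nothing in the labels ties their number to that of a WT library. In endothelial cells, described below, Iigp1 was also higher on the longer list than on the shorter list within each treatment. Across treatments, the PBS libraries on the shorter list lay above the longer-list WT bleomycin 1. The part of the gene list was not tested. The phagocyte panel itself summed to 6737 to 10470 CPM with PBS and 11530 to 12970 CPM with bleomycin, and its part in these values was not tested.

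Over all skin cells kept, 0 of 34 genes passed edgeR's test in WT mice (0% of 15334 genes), 21 stood below 0.05 before adjustment (18.3% of genes did), 18 rose by DESeq2 (2.52% of genes), and 16 lay above PBS without overlap, against 6.28% of genes. Irf7 (log2 fold 2.38, SE 0.327, adjusted p = 0.0523), Rtp4 (1.97, adjusted p = 0.0523), Ifi44 (2.74, adjusted p = 0.0551) and Bst2 (1.43, adjusted p = 0.0648) came nearest. The other genes followed throughout had log2 folds of 1.20 (Isg15), 1.66 (Ifit3), 1.08 (Usp18), 1.0 (Ifitm3), 0.53 (Gbp2) and 0.47 (Stat2). With the replicate block 6 rose (1.1% of all genes rose): Oasl2, Oas2, Irf7, Ifi44, Ddx58 and Rtp4. Without WT PBS 3 the count was 7 (1.82% of genes), and without WT bleomycin 3 it was 1 (0.0258%). A fold over all cells mixes a change within cells with a change in the share of classes.

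Endothelial cells, compared in 3 PBS and 2 bleomycin libraries, gave the one fall. Iigp1 had 2200, 1548 and 1176 CPM with PBS and 510 and 341 CPM with bleomycin, a log2 fold of -2.0 (SE 0.377, adjusted p = 0.0495), where 0.394% of 4569 genes were called. The counts rest on 13 and 37 endothelial cells in the bleomycin libraries. No interferon-stimulated gene was called without WT PBS 1 or without WT PBS 2 (0% and 0.225% of all genes were), and none without WT bleomycin 1 or 3 (0.218% and 0.0452%), which leaves 1 bleomycin library that is assumed to vary like the PBS libraries. Without WT PBS 3 the count was 2 (1.36%), and with shared barcodes left out it was 0 (0% of all genes). The SARATg libraries had 1108 CPM with PBS and 152 CPM with bleomycin, a log2 fold of -2.85 (SE 0.563, adjusted p = 0.00993, with 1.21% of genes called, the spread taken mostly from WT libraries, and 17 cells in the bleomycin library). Within each treatment, Iigp1 was higher in libraries on the longer gene list than in those on the shorter list, SARATg included. The part of the gene list in the fall was not tested. The immediate early and heat shock genes summed in WT endothelial cells to 17150, 13280 and 10930 CPM with PBS and 4885 and 6176 CPM with bleomycin, and their part was not tested. The dendritic cell genes summed there to 107, 149 and 91.5 CPM with PBS and 292 and 353 CPM with bleomycin. The monocyte and resident macrophage genes overlapped between groups. The part of these leukocyte genes was not tested either. In the same cells other genes pointed up without passing the test. Irf7 had 30.6, 24.8 and 49.1 CPM and then 292 and 84.1 CPM (log2 fold 2.01, adjusted p = 0.120), and Isg15 had 222, 198 and 315 CPM and then 729 and 349 CPM (log2 fold 0.99, adjusted p = 0.310). Bst2 had 409, 458 and 375 CPM and then 773 and 605 CPM (log2 fold 0.70), whereas Ifitm3 (log2 fold -0.76) and Gbp2 (-1.56) pointed down. With the replicate block, which here also leaves out WT PBS 2, 3 genes passed (3.35% of genes were called): Ifit2 (log2 fold 3.01), Ifi44 (1.90) and Iigp1 (-2.01).

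**Figure D3:**
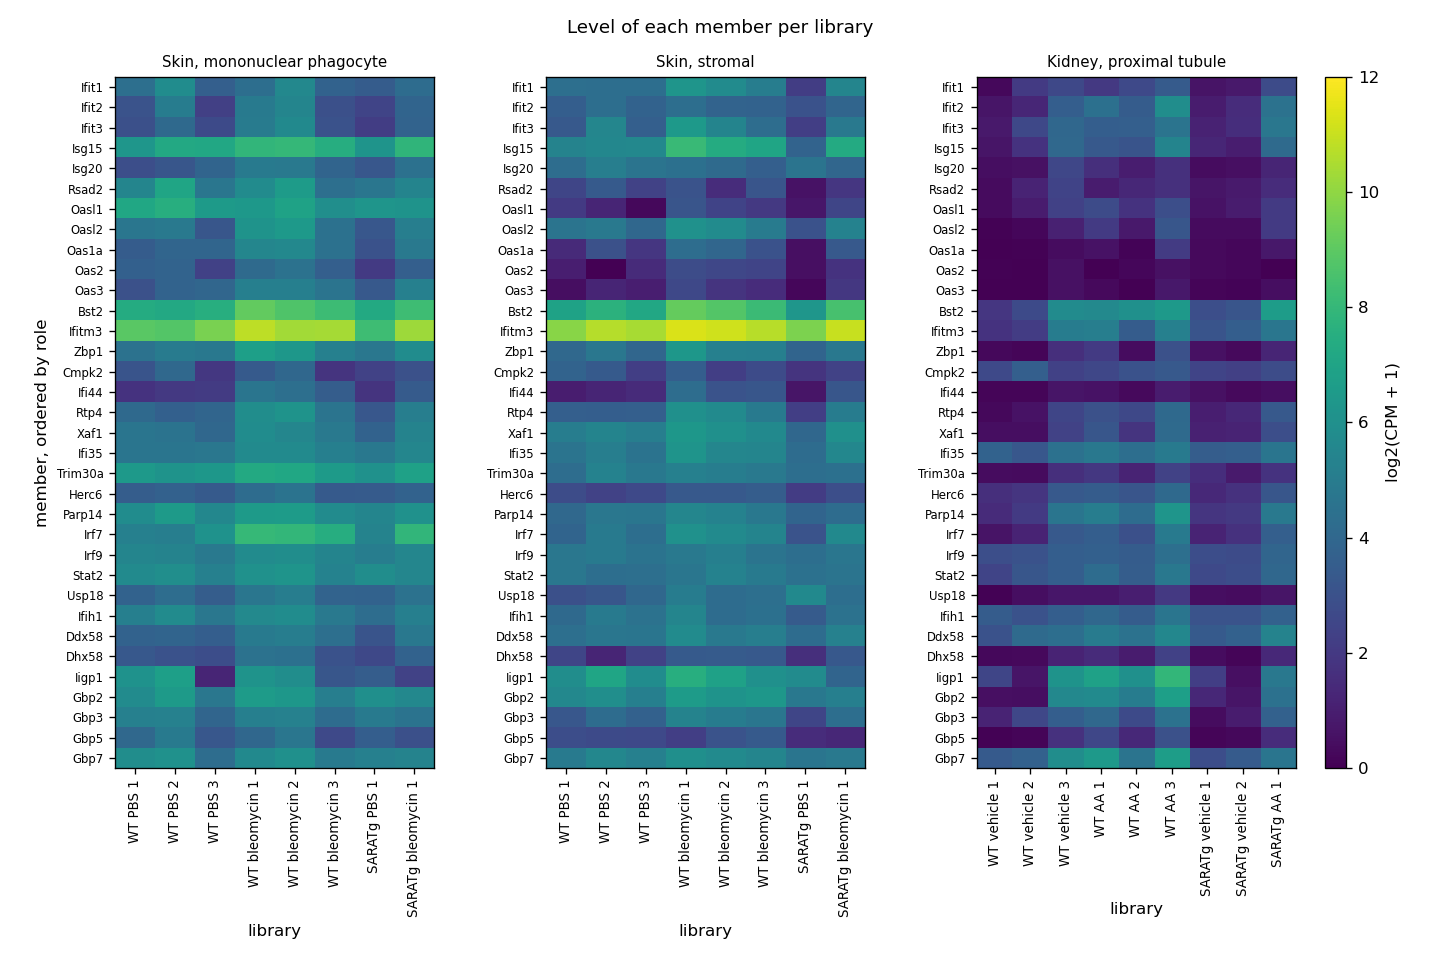
Heat map of the level of each of the 34 interferon-stimulated genes (rows, ordered by role; colour, log2(CPM + 1)) in each library (columns) of skin phagocytes, skin stromal cells and kidney proximal tubule cells. Bst2 is brighter in the WT bleomycin than in the WT PBS columns of both skin panels (291 to 575 against 121 to 205 CPM in stromal cells), and in the proximal tubule the Gbp2 row is dark in WT vehicle 1 and 2 (0.396 and 0.359 CPM) but not in WT vehicle 3 (47.0 CPM).

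No interferon-stimulated gene passed the test in the other skin classes of WT mice: 27 were tested in T, NK and innate lymphoid cells, 12 in neutrophils, 3 in keratinocytes, 4 in muscle, 18 in Schwann and 3 in mast cells, of which 3, 2, 1, 1, 4 and 1 had an unadjusted p under 0.05, as did 6.38%, 4.96%, 10.9%, 4.47%, 16% and 2.24% of all genes. No gene of any kind was called in these classes by edgeR (0% in each), and DESeq2 called 1 interferon-stimulated gene in Schwann cells (0.643% of genes rose there) and 0 in the others. With the replicate block, which leaves out WT bleomycin 2 in Schwann cells, edgeR called 2 there, where 291 of 5924 genes were called. In neutrophils Isg15 had 416, 274 and 371 CPM with PBS and 1040, 760 and 452 CPM with bleomycin (log2 fold 1.06, adjusted p = 0.889), without overlap. Irf7 overlapped there, with 66.5, 235 and 94.6 CPM against 214, 138 and 158 CPM. Mural cells, the class nearest to pericytes, reached the minimum of 10 cells in 3 PBS and 1 bleomycin libraries only and were not tested. Their summed level was 1752, 1692 and 2427 CPM with PBS and 2723 CPM in WT bleomycin 2, and 1459 and 4965 CPM in SARATg PBS and bleomycin.

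The SARATg skin libraries have 1 library per group, and the fit of all 4 groups takes the spread mostly from WT libraries. In stromal cells 7 of 34 genes were called higher with bleomycin in SARATg by this borrowed spread, against 4.03% of 13260 genes called higher and 8.27% called in either direction: Oas1a (log2 fold 4.13), Ifit1 (3.24), Isg15 (3.22), Rtp4 (2.71), Irf7 (2.41), Oasl2 (2.05) and Xaf1 (1.71). Isg15 had 13.2 CPM in SARATg PBS and 160 CPM in SARATg bleomycin, Irf7 had 7.30 and 50.4 CPM, and Bst2 had 79.1 and 368 CPM. The SARATg PBS values of these 3 genes lay below all 3 WT PBS libraries, and the SARATg bleomycin values lay within the range of the WT bleomycin libraries. Usp18 went the other way, from 51.2 CPM to 19.2 CPM. In phagocytes Irf7 had 40.7 and 237 CPM, inside the WT ranges of both treatments, and 0 of 34 genes were called in SARATg (0.234% of genes were), with 16 at an unadjusted p under 0.05 against 9.99% of genes. Over all cells, in stromal cells and in phagocytes, 0 of 34 genes differed in their bleomycin effect between genotypes (0% of genes in each class), with 3, 3 and 0 at an unadjusted p under 0.05, against 5.48%, 9.89% and 3.27% of genes. With 1 library per SARATg group this does not show that the effects were alike. In mast cells Ifitm3 was called in SARATg (2.16% of genes were), with a log2 fold of 8.03 that depends on near-zero counts.

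In kidney, the same question was asked of AA. In WT mice 0 of the genes tested passed in any of the 8 classes with a fit or over all cells by edgeR, and 0 by DESeq2. Over all cells 0% of 16055 genes were called, 31 of 34 interferon-stimulated genes were higher with AA, their median log2 fold was 1.03, and 1 stood below 0.05 before adjustment, as did 7.56% of genes. No gene was called in the single classes either (0% in each), except in intercalated cells (0.0157%). At an unadjusted p under 0.05 there were 2 of 29 interferon-stimulated genes in the proximal tubule (8.28% of all genes), 4 of 9 in thick limb and distal tubule cells (14.7%), 2 of 4 in intercalated cells (17.4%), 2 of 34 in phagocytes (5.87%), 2 of 14 in B cells (6.52%), and 1 each in endothelial, lymphoid and neutrophil cells (32, 31 and 22 tested; 3.9%, 5.47% and 3.24% of all genes). The median log2 fold of the 29 genes in the proximal tubule was 1.38.

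In kidney phagocytes, intercalated cells, B cells and neutrophils the count of genes that passed stayed at 0 whichever library was left out. Over all cells and in proximal, thick limb and distal tubule cells, library WT vehicle 3 decided the result. Without it 27 of 34 genes rose over all cells, where 14.9% of 16447 genes rose, with a median log2 fold of 2.71 over the 34. Its removal left controls with 82.3% and 72.2% proximal tubule cells, against 8.27%, 34.6% and 13.4% in WT AA 1 to 3. A fold over all cells mixes a change within cells with this change in the share of classes. Within lymphoid cells the summed level was 1105 to 1229 CPM in WT vehicle and 1080 to 1250 CPM in WT AA. Within proximal tubule cells it was 76.2 to 473.5 and 364 to 1096 CPM. In the proximal tubule 8 of 30 rose without WT vehicle 3 (1.93% of genes rose): Gbp2 (log2 fold 7.18), Gbp5 (5.50), Ifit2 (4.69), Rtp4 (4.54), Parp14 (3.93), Bst2 (3.89), Ifitm3 (3.03) and Herc6 (2.12). In thick limb and distal tubule cells 7 of 17 rose (2.93% of genes rose), among them Iigp1 (5.91), Gbp2 (3.44) and Rsad2 (3.16). In lymphoid cells Isg20 alone rose (1.69; 0.436% of genes rose). In endothelial cells Zbp1 rose (1.88; 0.495% of genes). When the library labelled WT AA 1 was left out as well (2 against 2 libraries), 9 of 34 rose over all cells (5.26% of genes rose; Gbp2, Gbp5, Bst2 and Isg20 among them), 4 of 13 in thick limb and distal tubule cells (3.01%), 2 of 30 in lymphoid cells (0.992%) and 0 of 31 in the proximal tubule (0%), with 25 of those 31 at an unadjusted p under 0.05 against 17.5% of genes.

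The proximal tubule values show the split. Gbp2 had 0.396, 0.359 and 47.0 CPM in WT vehicle 1 to 3 and 52.0, 31.9 and 109 CPM in WT AA 1 to 3, a log2 fold of 1.81 (SE 1.70, adjusted p = 0.653). Iigp1 had 4.64, 0.611 and 70.2 CPM and then 114, 64.1 and 247 CPM (log2 fold 2.27, adjusted p = 0.553). Vehicle 3 lay near or within the AA libraries for both, and vehicle 1 and 2 lay far below. Bst2 had 2.75, 5.46 and 54.3 CPM and then 49.9, 63.2 and 88.0 CPM (log2 fold 1.52), and Irf7 had 0.528, 1.26 and 9.35 CPM and then 10.9, 6.67 and 30.0 CPM (log2 fold 1.93). Isg15 had 0.578, 2.41 and 15.8 CPM and then 9.26, 7.69 and 41.7 CPM (log2 fold 1.44), and Ifitm3 had 2.37, 3.44 and 31.8 CPM and then 34.6, 10.1 and 36.5 CPM (log2 fold 0.91). Vehicle 3 overlapped the AA group for each of these. Ifit3 had 0.759, 5.16 and 15.0 CPM and then 11.2, 11.5 and 23.7 CPM (log2 fold 0.99). Stat2 overlapped narrowly, with 4.47, 8.20 and 10.9 CPM against 17.8, 10.8 and 26.7 CPM (log2 fold 1.05, adjusted p = 0.531). Of the 29 genes tested, 2 lay above vehicle in every AA library, Ddx58 and Rtp4, against 12.2% of all genes. Ddx58, the RNA sensor RIG-I, had 7.05, 16.6 and 19.3 CPM and then 31.3, 22.2 and 46.4 CPM (log2 fold 1.05, adjusted p = 0.531). Rtp4 had 0.206, 0.503 and 4.71 CPM and then 6.85, 5.03 and 15.9 CPM (log2 fold 2.23, adjusted p = 0.531). Usp18 had at most 3.02 CPM and was not tested. In SARATg, Gbp2 had 1.56 and 0.602 CPM with vehicle and 21.4 CPM with AA, and Bst2 had 6.26, 8.02 and 99.6 CPM, so the SARATg vehicle libraries lay near WT vehicle 1 and 2. SARATg AA is 1 library, so the tests that follow borrow its spread and cannot show that the AA effects were alike. Its Zfyve9 level, like that of WT AA 1, went against the label. Shares of all genes are given for all cells and the proximal tubule only. No interferon-stimulated gene passed in SARATg with AA or differed in its AA effect between genotypes, in any of these classes or over all cells (0% of genes over all cells and in the proximal tubule), and over all cells 0 had an unadjusted p under 0.05 in either test (2.94% and 2.12% of genes had). In the proximal tubule 5 of 33 did for the AA effect in SARATg, against 14.6% of genes.

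Leukocyte RNA moved with these tubule values. In cells gated as proximal tubule, all 10 phagocyte markers were detected in every WT library and summed to 17.5 to 136.5 CPM with vehicle and 83.7 to 248 CPM with AA, and the lymphoid panel to 3.1 to 16.9 and 25.9 to 89.4 CPM. Ptprc, the pan-leukocyte gene, had 2.63 to 7.71 and 10.8 to 20.6 CPM. In thick limb and distal tubule cells the monocyte genes summed to 7.63, 4.26 and 3.06 CPM with vehicle and 13.6, 9.12 and 46.2 CPM with AA. The resident macrophage genes had 2.93, 6.39 and 16.8 CPM there and then 15.9, 13.7 and 40.2 CPM, with overlap. The dendritic cell genes had 5.28, 1.77 and 45.9 CPM and then 2.27, 2.28 and 3.35 CPM. The part of leukocyte RNA in either result was not tested.

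In kidney phagocytes none of the 34 interferon-stimulated genes passed, with a median log2 fold of 0.14 and 2 of them at an unadjusted p under 0.05. Gbp2 had 28.3, 27.5 and 86.4 CPM with vehicle and 93.7, 34.2 and 87.4 CPM with AA, and Isg15 had 54.8, 53.6 and 79.4 CPM and then 80.5, 62.5 and 61.8 CPM. Irf7 (54.4, 42.9 and 86.6 CPM against 70.5, 43.7 and 92.2 CPM) overlapped as well. Bst2 was the one gene above vehicle in every AA library, which held for 7.41% of all genes, with 305 CPM, 290.1 CPM and 276 CPM against 314, 504 and 308 CPM (log2 fold 0.39, adjusted p = 0.797). Ifi44 was the one gene below in every AA library, with 11.8, 5.85 and 6.62 CPM against 4.33, 2.98 and 5.51 CPM (log2 fold -0.83, adjusted p = 0.774). Ifitm3, Ifit3, Stat2 and Usp18 overlapped, with log2 folds of 0.44, 0.31, -0.10 and -0.03. Lymphoid cells had a median of 0.12 over 31 genes. The endothelial class, with 3 vehicle and 2 AA libraries, was the highest for interferon-stimulated genes in kidney. Isg15 had 186, 233 and 431 CPM there with vehicle and 749 and 401 CPM with AA, with overlap. The AA values rest on 118 and 19 endothelial cells in WT AA 1 and 2.

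Cells with a strong response were counted as those with UMIs of at least 3 of 12 core genes after each cell was thinned to 1000 UMIs. In skin of WT mice their share in neutrophils was 4.55%, 0% and 4.36% with PBS and 13.4%, 26.7% and 7.16% with bleomycin, a mean of 2.97% ± 2.57 (SD, n = 3) against 15.8% ± 9.96. The groups did not overlap, and the exact permutation test over libraries gave p = 0.1, the smallest that 3 against 3 allows. The 0% is 0 of 11 cells, which allows a share of up to 27.3%, and the 26.7% is 4 of 15 cells. The difference of 12.8 percentage points was 7.32 without WT bleomycin 2 and -0.00868 with at least 4 genes required. In the SARATg libraries the share was lower with bleomycin, 9.78% against 21.4% (6 of 28 cells) with PBS. In endothelial cells the share was 4.76%, 0% (0 of 13 cells, which allows up to 23.1%) and 3.45% with PBS and 10% and 8.33% (1 of 10 and 3 of 36 cells) with bleomycin, without overlap (exact permutation p = 0.1, the smallest that 3 against 2 allows), and the difference of 6.43 percentage points was 5.06 to 7.44 under the alternatives that gave a value. In phagocytes the mean was 2.62% ± 1.26 with PBS and 6.33% ± 3.73 with bleomycin (exact permutation p = 0.2), and in stromal cells 1.03% ± 0.233 and 2.50% ± 1.77 (exact permutation p = 0.3), with WT bleomycin 3 low for phagocytes (2.27%) and high for stromal cells (4.41%). The phagocyte difference of 3.71 percentage points was 2.08 without WT bleomycin 2 and 5.74 without WT bleomycin 3, and the stromal difference of 1.47 was 0.52 without WT bleomycin 3 and 2.28 without WT bleomycin 2. These differences also moved with the definition of a strong response: with at least 2 genes, at least 4 genes or 2000 UMIs per cell they were 10.3, 1.59 and 9.49 in phagocytes and 8.45, 0.326 and 4.62 in stromal cells, higher with bleomycin in each. Before thinning, the phagocyte shares were 11.2% to 15.3% and 30.0% to 51.4%. In kidney the share was highest in endothelial cells, 27.3% ± 11 with vehicle (n = 3) and 31.7% ± 15.0 with AA (n = 2; exact permutation p = 0.7), and 0.108% and 0.285% in the proximal tubule (exact permutation p = 0.3). B cells had 0% in all 6 WT kidney libraries, which allows shares of up to 0.806% to 8.82%, above those of the proximal tubule.

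**Figure D4:**
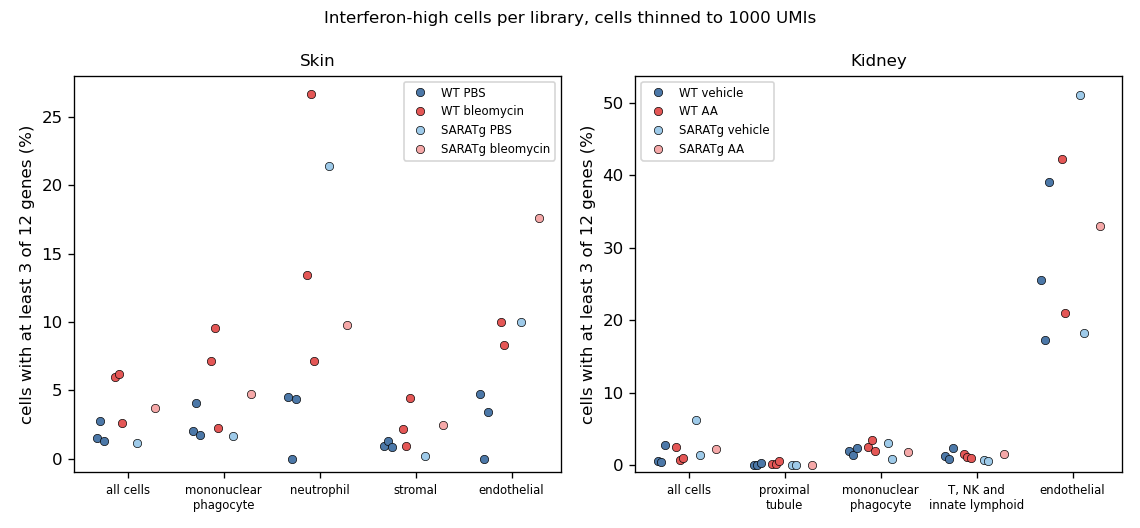
Share of interferon-high cells (percent of cells thinned to 1000 UMIs, at least 3 of 12 core genes detected) per library, over all cells and in 4 classes of each tissue; each point is 1 library. Skin neutrophils of WT mice lie higher with bleomycin (7.16% to 26.7%) than with PBS (0% to 4.55%), the SARATg pair lies the other way, and kidney endothelial cells are high in both groups.

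The rest of the pathway was taken from lists with fixed members. Over all cells, each of the 13 ligand genes other than Ifng had at most 3.73 CPM in any library. Over all skin cells Ifnb1, the first-wave type I interferon, had 1.17, 1.53 and 0.608 CPM with PBS and 0.689, 3.73 and 0.321 CPM with bleomycin, and Ifng had 6.25, 1.53 and 4.92 CPM and then 2.24, 4.28 and 2.03 CPM, with overlap in both. In kidney Ifng had 1.37, 2.25 and 6.15 CPM with vehicle and 11.4, 6.87 and 17 CPM with AA, with vehicle 3 the highest of its group and every AA library above it. These values over all cells move with the lymphoid share given above. Within T, NK and innate lymphoid cells the summed ligands had 95.4, 125 and 26.9 CPM with vehicle and 36.5, 21.0 and 38.6 CPM with AA in kidney, with overlap, and in skin 188 and 50.7 CPM with PBS and 33.1, 35.2 and 12.4 CPM with bleomycin, without overlap. Of the 13 ligand genes, 1 had enough UMIs for the test in these cells, and it did not pass in either tissue. Of 37 further interferon-inducible genes tested in skin stromal cells 3 rose, where 3.12% of all genes did: Ifit3b (2.47), which is a near copy of Ifit3, and the immunoproteasome subunits Psmb8 (1.58) and Psmb9 (1.58), with a median of 0.64. None of the 11 nucleic acid sensors tested there passed (median 0.07). No gene of these 2 lists was called in another WT comparison. In skin phagocytes the 8 monocyte genes had a median log2 fold of 0.36, the 8 resident macrophage genes 0.18, the 9 dendritic cell genes -0.03 and the 12 immediate early and heat shock genes -0.54, and none was called.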

How the data were processed

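The deposited data are UMI counts per gene and cell barcode, called and counted by the authors without normalization (Cell Ranger 4.0.0, 3.1.0 or 3.0.2 per the file headers; mm10, Cell Ranger 3.0.2 and Seurat 2.3.4 per the submitters' processing notes). The 17 libraries were joined by Ensembl identifier. Cells with fewer than 200 genes, or with mitochondrial UMIs above 20% (skin) or 50% (kidney), were left out. A cell was placed in a class with UMIs of at least 3 panel markers and a detected share 1.5 times that of every other panel. Doublets were treated in the single classes by leaving out cells that fit 2 classes (1396 in skin, 4226 in kidney), which stay in the values over all cells. As an alternative, the cells with the most UMIs were left out.

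UMIs were summed per library and class (at least 10 cells, at least 2 libraries per WT group) and tested two-sided by the quasi-likelihood method of edgeR 4.0.16 after filterByExpr and TMM scaling (Benjamini-Hochberg adjusted p over all genes, threshold 0.05) in R 4.3.3, with DESeq2 1.42.0 as an alternative. Fits were tested on simulated data. SARATg groups entered a fit of 4 groups, in skin with the gene list as a covariate. Shares of cells were compared with two-sided exact permutation tests over libraries. Interferon-stimulated genes were named by a rule: up to 10 called per direction with the largest fold, and always Isg15, Ifit3, Irf7, Bst2, Ifitm3, Gbp2, Stat2 and Usp18 (all 8 in skin stromal cells, in both phagocyte classes, over all skin cells and in the proximal tubule, fewer elsewhere); genes called only under an alternative, Iigp1 and Oasl1 in skin phagocytes, Iigp1, Ddx58 and Rtp4 in the proximal tubule, Ifi44 in kidney phagocytes, and Isg20 and Cmpk2 were named after their values were seen. The genes, lists and tests were chosen with earlier results of these data known.

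In skin WT libraries the deviations from group means of same-numbered libraries correlated in every pair (all cells 0.257, 0.129 and 0.527, phagocytes 0.315, 0.236 and 0.568, stromal cells 0.216, 0.249 and 0.376). The labels state no pairing, and over all cells and in phagocytes numbers 1 and 2 correlated across numbers too. Over all cells PBS 2 had 0.213 with bleomycin 1, and PBS 1 had 0.187 with bleomycin 2. Fits with the replicate block are given as an alternative and not as a known pairing. Numbers 1 and 2 also share the longer gene list, and number 3 the shorter one. Alternatives covered the test, scaling, filters, gate, thinning, gene list, block and each library left out; leaving out shared barcodes and leaving out both doubted kidney libraries were chosen after seeing the data. The result of 1 further gene list is not reported here.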

Additional observations from a re-analysis of the deposited data

Results flagged for a closer look

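Iigp1 in skin keratinocytes was flagged because the bleomycin effect differed between genotypes by a test of the difference (log2 -13.24, SARATg effect minus WT effect, edgeR adjusted p = 0.0482). The value rests on few UMIs: 55 in SARATg PBS (11.2 CPM), 0 in SARATg bleomycin, 0 in each of the 3 WT PBS libraries and 0, 8 and 0 in WT bleomycin 1 to 3 (17.2 CPM in WT bleomycin 2). The size of the fold depends on the zeros and is no estimate of a change.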

How the results depend on the processing

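Counts below are interferon-stimulated genes past the threshold in WT mice. In skin over all cells, in phagocytes and in stromal cells the main counts were 0, 0 and 7. With DESeq2 they were 18, 12 and 13, where 1320 of 15300, 314 of 12228 and 1062 of 10809 genes of any kind were called in either direction. Without the filter on low counts they were 6, 4 and 13 (360 of 23950, 72 of 20538 and 1258 of 20304 genes of any kind). Within the longer gene list alone, with 2 against 2 libraries, they were 12, 18 and 2 (782 of 15256, 962 of 12293 and 75 of 10647). In the joint fit, where the SARATg libraries and the gene list covariate both enter, they were 14, 8 and 9. That fit called 964 of 18078 genes over all cells and 219 of 14559 in phagocytes. Adding the gene list as a covariate gave 9 over all cells (831 of 15334 genes of any kind), 7 in phagocytes (166 of 12244) and 7 in stromal cells. With the replicate block the counts were 6 over all cells (584 of 15334 genes of any kind), 5 in phagocytes (151 of 12244) and 9 in stromal cells. For the stromal counts in the joint fit, with the covariate and with the block, the genes of any kind called are not given here. Those stromal counts therefore cannot be set against a share of all genes. The block fit keeps only replicate numbers present in both groups of a class. In endothelial cells it left out WT PBS 2 and gave 3 (149 of 4447). The main fit gave 1 there, and the fit without WT PBS 2 and without the block gave 0 (10 of 4447). In Schwann cells the block fit left out WT bleomycin 2 and gave 2 (291 of 5924), against 0 in the main fit. It changed no other skin count. Without TMM scaling the count over all skin cells was 3 (113 of 15334 genes of any kind). The median of all genes moved from 0.01 to -0.14 there and from -0.01 to 0.15 in the kidney proximal tubule. In stromal cells 4 genes were called under the stricter gate (351 of 10550 genes of any kind). The count was 0 without the cells with most UMIs (15 of 9053) and without shared barcodes (20 of 9808). Without both doubted PBS libraries, which leaves 1 control library, the median log2 fold was 0.69. The cause was not tested. Leaving out 1 library at a time gave 0 to 7 genes over all skin cells, 0 to 4 in phagocytes, 0 to 3 in stromal, 0 to 2 in endothelial and 0 to 1 in Schwann cells, and 0 in the other skin classes. Endothelial cells gave 4 without the filter on low counts (197 of 14056 genes of any kind) and 0 without shared barcodes (0 of 4358). They gave 3 with the gene list as a covariate (92 of 4569) and 4 in the fit of 4 groups (145 of 5368). Schwann cells gave 1 with DESeq2 (58 of 5132 genes of any kind) and 2 without the filter (223 of 14898). They gave 1 each with stricter cell filtering (79 of 5880) and without shared barcodes (79 of 5452). Without the filter lymphoid cells gave 1 (241 of 17093 genes of any kind), keratinocytes 2 (435 of 18254) and muscle 1 (42 of 14775). The fit of 4 groups gave 1 each in keratinocytes (243 of 10654), muscle (42 of 7512) and mast cells (50 of 3748). The fold of Gbp2 reversed without both doubted PBS libraries, when 1 control library is left, to -0.16 over all cells and -0.32 in phagocytes.

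In kidney, leaving out 1 library at a time gave 0 to 27 over all cells, 0 to 8 in the proximal tubule, 0 to 7 in thick limb and distal tubule, 0 to 1 in endothelial and 0 to 1 in lymphoid cells; only WT vehicle 3 raised a count. Without the filter on low counts thick limb and distal tubule cells gave 3 (202 of 15954 genes of any kind) and intercalated cells 6 (410 of 15213). B cells gave 2 (159 of 14780) and neutrophils 1 (44 of 14640). Same-numbered kidney libraries did not correlate in every pair (over all cells -0.393, 0.369 and 0.319), and the labels state no pairing. A fit with the replicate block gave 1 gene in endothelial cells, where it leaves out WT vehicle 3 (139 of 6871 genes of any kind), and 0 elsewhere. Without WT vehicle 3 and WT AA 1 the count was 9 over all cells (913 of 16397 genes of any kind). It was 4 in thick limb and distal tubule (586 of 9367), 2 in lymphoid (239 of 10883) and 0 in proximal tubule cells. Collecting duct, stromal, mural and podocyte cells had too few libraries for a fit.

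Among the classes plotted, the share of interferon-high cells (treated minus control, percentage points) reversed in skin neutrophils with at least 4 genes (-0.00868), in kidney lymphoid cells at 2000 UMIs per cell (0.236), with at least 2 genes (0.112) and without WT vehicle 3 (0.143), in kidney endothelial cells at 2000 UMIs (-8.39), with at least 2 genes (-7.60) and without WT vehicle 2 (-0.652), and over all kidney cells without WT vehicle 1, WT vehicle 2 or WT AA 1 (-0.187, -0.235 and -0.365). Of the classes not plotted, kidney neutrophils went from -2.42 to 3.94 and thick limb cells from 0.806 to -0.0599 at 2000 UMIs, and skin lymphoid cells from -0.0388 to 1.37 at 2000 UMIs, 1.08 with at least 2 genes, 0.0697 with at least 4 genes, and 0.186 and 0.282 without WT bleomycin 2 or 3. Leaving out 1 library at a time, the difference ran from -0.626 to 0.143 in kidney lymphoid cells, from -0.652 to 10.3 in kidney endothelial cells and from -0.365 to 0.952 over all kidney cells. None of these differences had a permutation p that the design could bring under 0.05.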
